A study of Mus musculus with 6 samples.

Results

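The nuclear genes that encode subunits of the mitochondrial respiratory chain were followed across single cells of the fetal mouse small intestine. Members were chosen by symbol: Nduf followed by a, b, c, s or v and a number (complex I), Sdha to Sdhd (complex II), Uqcr (complex III), and Cox with a subunit number from 4 to 8 (complex IV). Of the 24568 symbols in the deposited matrix, 68 matched and 66 had counts under both endings of the cell barcodes described below. These 66 members were 37 genes of complex I, 4 of complex II, 8 of complex III and 17 of complex IV. Cox8c matched but had 0 counts, and Ndufb1-ps was counted under a single ending, so both stayed out. Complexes follow the symbols here, which places Ndufa4 and Ndufa4l2 in complex I, although Ndufa4 protein is known to associate with complex IV.

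The respiratory chain lies in the inner mitochondrial membrane. Complexes I and II feed electrons from NADH and succinate to ubiquinone, complex III passes them on to cytochrome c, and complex IV hands them to oxygen, while complexes I, III and IV pump the protons that drive ATP synthase. Most subunits are encoded in the nucleus and imported, and a small set, including the catalytic core of complex IV, is encoded by mitochondrial DNA (symbols that begin with mt-). Some complex IV subunits exist as alternative isoforms, and Cox4i2 and Ndufa4l2 are known as oxygen-responsive forms of Cox4i1 and Ndufa4.

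Cells came from C57/BL6 mouse embryos of a Pdgfra-H2BGFP line, in which a nuclear green fluorescent protein reports Pdgfra, a receptor gene of the mesenchyme, in every group. The labels name 6 samples in 4 groups. Embryos of E15.5 and E16.5 gave 2 wells of live cells and 1 well of enriched cells, and embryos of E13.5, E14.5 and E18.5 gave the same set of wells. Enrichment was for cells with a high Pdgfra signal or with Epcam, CD31 or CD45 on the surface, and embryos of an age were pooled, as 4 replicates for E13.5, 3 for E14.5 and 2 for each later age.

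All cells are in 1 matrix of unique molecular identifier (UMI) counts, in which each UMI stands for a captured transcript 3′ end. The labels do not say what the 6 suffixes of the cell barcodes stand for. Ages and groups of cells are therefore unknown, and the matrix counts as 1 sample without replicates. The suffixes are used as 6 technical sets: A1, A2 and A3 share one ending, and B1, B2 and B3 share the other. Whether a set is a sample is not stated. No test was possible, and every interval is a 95% interval of counting error alone. Both endings rest on different gene lists, so levels were compared within an ending only. Levels are UMIs per 1000000 UMIs of a set (CPM), a molecule count that is not scaled by transcript length.

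After a filter on cells (at least 1000 genes detected, at most 5% of UMIs from mitochondrial genes), 12688 of 13127 cells remained, from 1185 in A3 to 2518 in B2. Median depth was 7073 to 13588 UMIs per cell in ending A and 3553 to 4189.5 in ending B. The third set of each ending stood apart from the others in more than the members, and each comparison of it carries these differences. Cells with 0 UMIs of 31 cycling genes, after each cell was thinned to 2000 UMIs, made up 33.1% of A3 against 8.91% and 9.35% of A1 and A2, and 46.7% of B3 against 23.5% and 24.4% of B1 and B2. Ribosomal protein genes took 16.8% of UMIs in A3 against 20.4% in A1 and in A2, and 22.0% in B3 against 26.5% in both B1 and B2. General mesenchyme markers (6 genes) summed to 5120 CPM in A3 against 6852 and 6303 CPM, and to 3762 CPM in B3 against 6417 and 6893 CPM. They did not move alike: Col1a1, Col3a1, Dcn and Lum were lower in the third set of both endings, and Pdgfra and Col1a2 were higher. Pdgfra was at 943 CPM in A3 against 173 and 129 CPM, and at 409 CPM in B3 against 106 and 113 CPM. It is also among the PDGFRA-high markers given next. The summed level of 6 markers of PDGFRA-high mesenchyme was 2495 CPM in A3 and 2301 CPM in B3, against 677 to 1012 CPM in the other sets, and 6 smooth muscle markers were at 553 and 228 CPM against 1125 to 1602 CPM. Markers of other cell types were uneven between the sets. The 7 epithelial markers reached 372 CPM in A3 and 115 CPM in B3, against 41.8 to 53.9 CPM elsewhere. The 5 enterocyte markers reached 2325 CPM in A3 against at most 491 CPM elsewhere. At least 1 UMI of the epithelial markers was found in 93.0% of A3 cells, against 47.8% and 49.7% in A1 and A2. Enteric neuron markers (5 genes) were at 4.69 CPM in A3 and 1.33 CPM in B3 against 30.1 to 82.5 CPM elsewhere. Erythroid markers summed to 3700 CPM in B3 and 1786 to 1846 CPM in B1 and B2. Blood lineage and endothelial markers were low but highest in the third set of both endings. Blood lineage markers were at 79.9 CPM in A3 against 8.04 and 11.04 CPM, and at 65.6 CPM in B3 against 30.8 and 27.9 CPM. Endothelial markers were at 47.2 CPM in A3 against 7.88 and 8.16 CPM, and at 46.5 CPM in B3 against 18.9 and 16.3 CPM. No list had all its markers at 0. The part of these differences in the results below was not tested, except where cells without cycling UMIs or without epithelial UMIs are given. Between 6 and 8 barcode sequences of each set recurred under another suffix.

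Promoters were available in the RefSeq promoter table (GRCm38.p6, 250 bases before to 50 bases after the start) for 53 members. The promoters of Ndufa6 and Ndufs4 are shown because both genes were higher in the third set of each ending, and that of Ndufv1 because it had the lowest mean of both ratios in complex I. Ndufa6 lies on chr15:82354242-82354541, Ndufs4 on chr13:114388045-114388344 and Ndufv1 on chr19:4012706-4013005, all on the minus strand, and each run is printed 5′ to 3′. Capitals mark a match to the letters of NRF1 in Ndufa6 and of YY1 in Ndufs4, and none of the 4 motifs searched was found in the Ndufv1 run.
Ndufa6: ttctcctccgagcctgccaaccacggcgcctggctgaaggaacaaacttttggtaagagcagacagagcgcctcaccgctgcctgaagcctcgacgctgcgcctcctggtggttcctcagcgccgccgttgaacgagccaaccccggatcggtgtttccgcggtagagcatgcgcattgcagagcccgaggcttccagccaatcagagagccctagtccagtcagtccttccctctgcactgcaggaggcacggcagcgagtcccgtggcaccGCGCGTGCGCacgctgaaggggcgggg
Ndufs4: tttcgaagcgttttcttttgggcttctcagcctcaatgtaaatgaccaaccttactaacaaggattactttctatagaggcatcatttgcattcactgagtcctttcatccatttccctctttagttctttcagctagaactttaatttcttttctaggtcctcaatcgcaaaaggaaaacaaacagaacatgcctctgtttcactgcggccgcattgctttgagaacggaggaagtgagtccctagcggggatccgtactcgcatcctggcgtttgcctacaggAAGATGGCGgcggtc
Ndufv1: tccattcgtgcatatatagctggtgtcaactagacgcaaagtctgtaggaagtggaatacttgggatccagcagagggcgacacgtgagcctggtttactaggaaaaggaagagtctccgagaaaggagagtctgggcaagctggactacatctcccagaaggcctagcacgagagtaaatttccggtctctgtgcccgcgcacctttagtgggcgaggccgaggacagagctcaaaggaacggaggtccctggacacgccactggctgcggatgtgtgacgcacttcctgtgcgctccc
The NRF1 letters (GCGCA, any base, GCGC) occurred on either strand in 11 of the 53 member promoters (20.8%), against 5.19% of all 27025 promoters in the table. YY1 letters (AAGATGGCG) occurred in 5 (9.43% against 1.64%), ETS letters (CCGGAAGT) in 4 (7.55% against 4.31%), and ERR letters (AAGGTCA) in 4 (7.55% against 5.38%). These factors are known regulators of respiratory genes. A match is a description of letters, sites of different motifs were counted separately, and overlaps between them were not looked for. The promoters of Ndufa4l2 and Cox4i2 are not shown here.

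Respiratory chain transcripts as a whole differed little between the sets of an ending. Members summed to 14679 CPM in A1, 14794 CPM in A2 and 15752 CPM in A3. In ending B they summed to 18846 CPM in B1, 18837 CPM in B2 and 18162 CPM in B3. A3 was thus above both other sets of its ending and B3 below both of its own. The log2 ratio of the third set against the first and second pooled was 0.10 (0.09 to 0.10) in ending A and -0.05 (-0.06 to -0.04) in ending B, while A1 and A2 differed by -0.01 and B1 and B2 by 0.0007. With ribosomal protein genes left out of the denominator, every ratio moved by -0.06 in ending A and -0.09 in ending B, and the members' ratios became 0.03 and -0.14.

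By complex, the nuclear genes of complex I summed to 6854, 7029 and 7378 CPM in A1, A2 and A3 and to 8515, 8517 and 8075 CPM in B1, B2 and B3. Complex IV genes summed to 5343, 5286 and 5689 CPM and to 7264, 7260 and 6992 CPM in the same order. The log2 ratios were 0.09 and -0.08 for complex I and 0.10 and -0.05 for complex IV. Both complexes together make up most of the sum of all members, so sharing its direction is no separate result. Complex III was higher in A3, at 2289 CPM against 2029 and 2024 CPM (log2 ratio 0.18, 0.15 to 0.20). In ending B its sums were 2789, 2799 and 2842 CPM, a log2 ratio of 0.02 that turned to -0.06 without ribosomal protein genes in the denominator. Complex II, the smallest sum, was lower in the third set of both endings: 396 CPM in A3 against 452 and 454 CPM (log2 ratio -0.20, -0.25 to -0.15), and 252 CPM in B3 against 279 and 262 CPM (-0.10, -0.17 to -0.03). Among cells with 0 cycling UMIs both intervals included 0 (-0.11, -0.23 to 0.01, and -0.04, -0.16 to 0.09), and B3 at 249 CPM lay between B1 (266 CPM) and B2 (246 CPM). With Ndufa4 and Ndufa4l2 counted in complex IV, the ratios of complex I were 0.05 and -0.10 and those of complex IV 0.14 and -0.03.

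**Figure D1:**
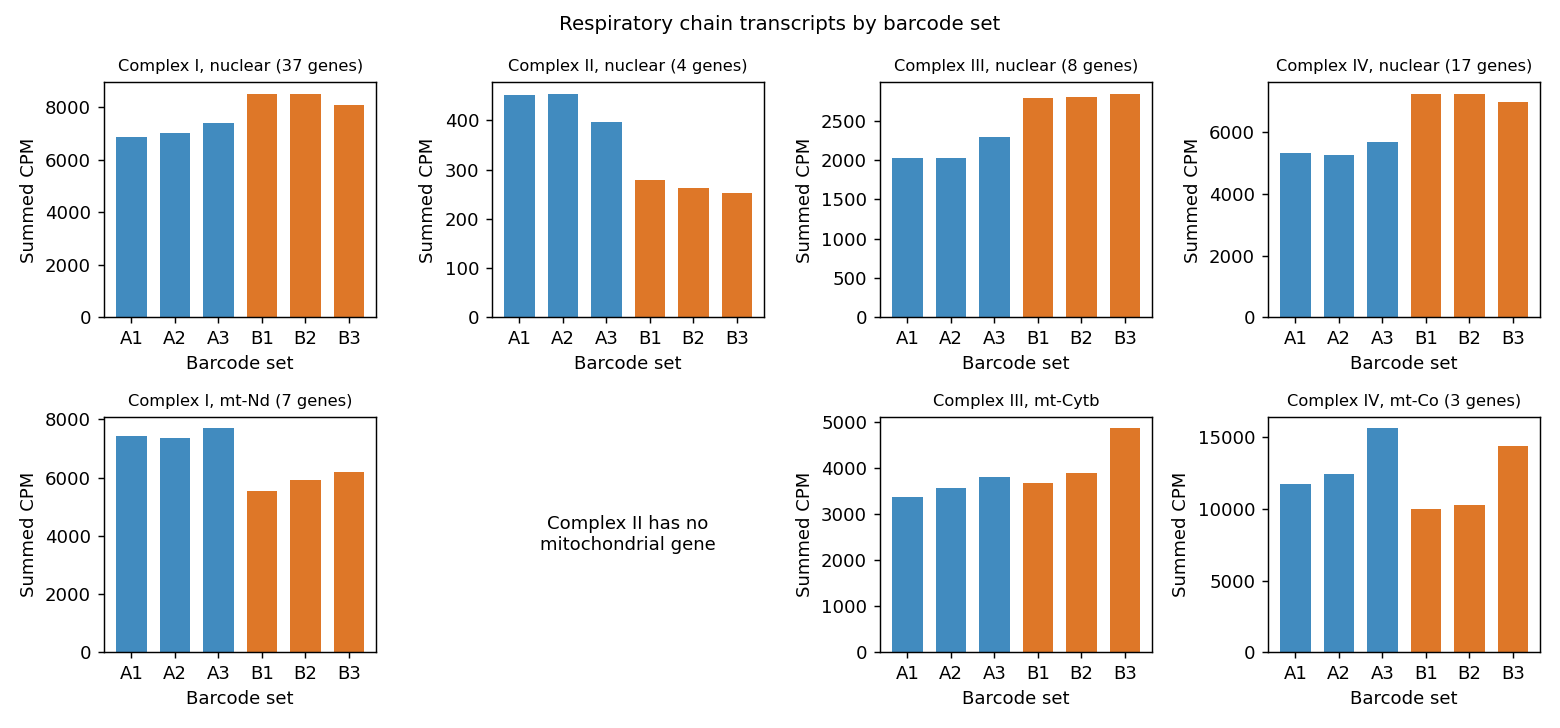
Summed CPM of the nuclear genes of each complex (top row) and of the mitochondrial genes of the same complex (bottom row) in the 6 barcode sets, A sets in blue and B sets in orange; bars are sums of 1 pooled matrix, start at 0 and carry no error bar because counting error is small at this scale. The mt-Co genes were higher in A3 and B3, whereas nuclear complex IV was higher in A3 only and lower in B3.

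Of the 66 members, 61 reached a mean of 20 CPM in each ending and entered the comparison with all genes, and Sdhd, Cox6a2, Cox7a1, Cox7b2 and Cox8b did not. A gene was called higher where the third set was at least 25% above each of the other 2 sets of its ending, and lower where it was at least 20% below each, which is the same fold. Higher in A3 were 9 members (20.4% of all 5556 genes compared were), and 3 were lower (26.7% of all genes). Higher in B3 were 5 members (28.2% of all genes), and 3 were lower (19.8%). The members called higher in both endings were Ndufa4l2, Cox4i2, Ndufa6 and Ndufs4, 4 of 61 or 6.56% against 16.3% of all genes, and 0 were lower in both against 13.6%. No member was called in opposite directions, as 0.342% and 0.396% of all genes were. In neither ending called were 45 members, and 16 (26.2%) were called in at least 1 ending, against 64.3% of all genes. Members are abundant, and among genes of at least 100 CPM 2 of 53 members were higher in both endings, against 11.2%, and 0 lower, against 16.4%.

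The spread of the members was also smaller than that of all genes. Their median absolute log2 ratio was 0.18 in ending A and 0.14 in ending B, against 0.34 and 0.35 over all genes compared. For A1 against A2 it was 0.11 in members and 0.07 over all genes, and for B1 against B2 0.03 and 0.07. The signed median of members was 0.05 in ending A and -0.07 in ending B, against -0.07 and 0.07 over all genes. Across genes, the ratios of both endings had a Spearman rho of 0.36 over the 61 members and 0.76 over all 5556 genes, a description of genes and not of replicates. In all, 11 members were positive in both endings, 21 negative in both, 23 positive in ending A alone and 6 in ending B alone. Members with a shorter transcript length had higher ratios in ending A (rho -0.47 over 61 members). This was not seen in ending B (0.06) and differed from all genes (0.16 and 0.20). Transcript length was the median over all protein-coding entries of a gene in the GENCODE vM21 annotation. It need not be the length of the transcript that was counted (651 bases for Ndufs1 and 2413 bases for Ndufb2).

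**Figure D2:**
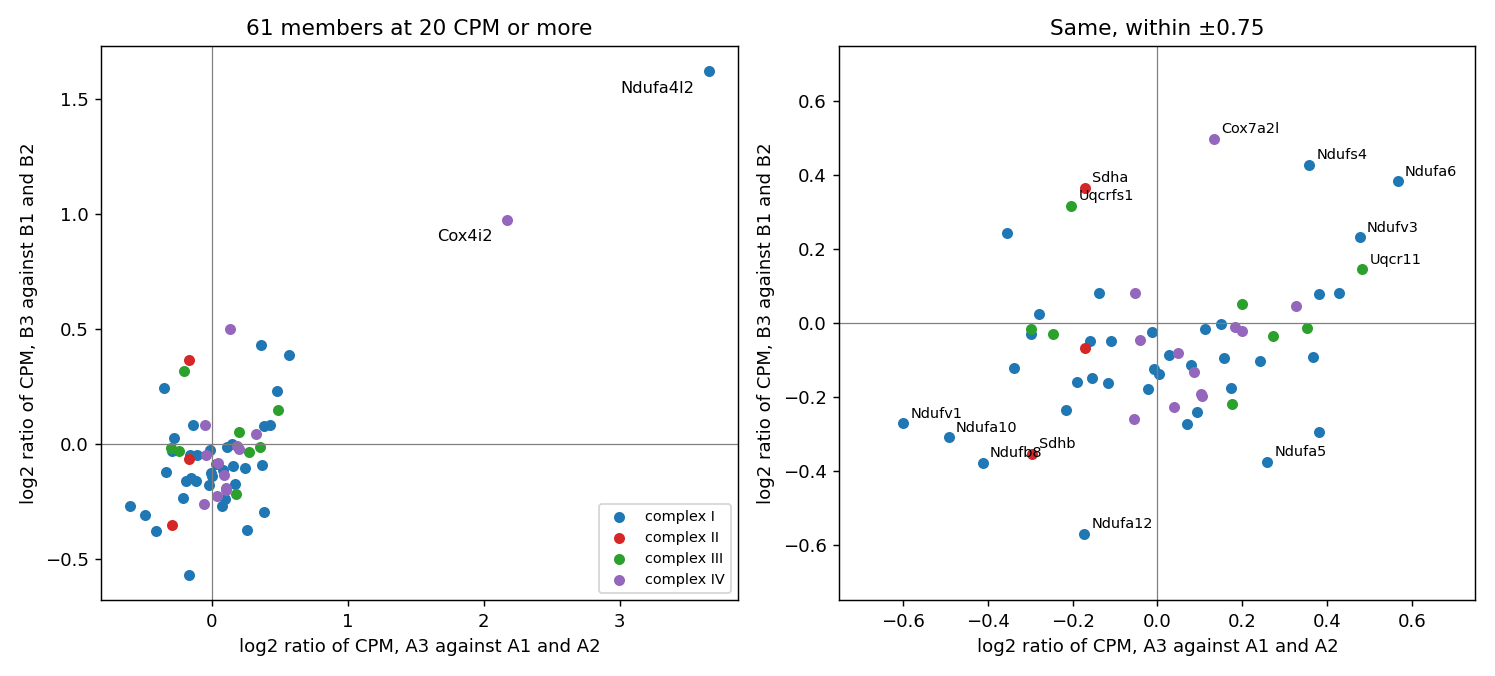
Log2 ratio of CPM for each of 61 members, A3 against A1 and A2 (x axis) and B3 against B1 and B2 (y axis), coloured by complex; the right panel shows the centre of the left one. Ndufa4l2 (3.65 and 1.62) and Cox4i2 (2.17 and 0.97) lie far from the others, which are all within 0.60 of 0.

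Complex I is built around a small set of conserved core subunits that hold the flavin and the iron-sulfur clusters, surrounded by many accessory subunits. The 7 nuclear core genes summed to 893 and 951 CPM in A1 and A2 and 749 CPM in A3, a log2 ratio of -0.30 (-0.33 to -0.26). In ending B they summed to 757, 746 and 714 CPM (-0.07, -0.12 to -0.03), so that the sum was lowest in the third set of both endings. The 30 other genes had ratios of 0.14 and -0.08. By the transcript length defined above, core genes had a median of 977 bases, against 627 bases in the others. Whether length bears on these ratios was not tested.

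Ndufv1, the core subunit that binds NADH and flavin, had the lowest mean of the ratios of both endings in complex I. It was at 87.3 CPM in A1, 93.0 CPM in A2, 59.5 CPM in A3, 60.4 CPM in B1, 56.5 CPM in B2 and 48.4 CPM in B3. The third set was lowest in both endings, with log2 ratios of -0.60 (-0.73 to -0.47) and -0.27 (-0.44 to -0.11), and the call was made in ending A only. Ndufa10, an accessory subunit, was at 124 CPM in A3 against 173 and 175 CPM, and at 140 CPM in B3 against 179 and 169 CPM. Ndufb8, an accessory membrane subunit, was at 219 CPM in A3 against 268 and 317 CPM and at 195 CPM in B3 against 262 and 246 CPM. For both genes the third set was lowest in each ending, and A1 and A2 also differed in Ndufb8 (log2 -0.24).

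Ndufa4 and Ndufa2 had the highest levels of complex I by mean over the 6 sets. Ndufa4 was at 449, 475 and 601 CPM in A1 to A3 and at 538, 578 and 591 CPM in B1 to B3, which gave log2 ratios of 0.38 (0.34 to 0.42) and 0.08 (0.03 to 0.13). Ndufa2, an accessory subunit with a thioredoxin-like fold, was at 360, 331 and 363 CPM and at 615, 621 and 512 CPM, with ratios of 0.07 and -0.27. Ndufa4 was therefore called in ending A only, and Ndufa2 in neither.

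Ndufa6 and Ndufs4 were higher in the third set of both endings. Ndufa6, an accessory subunit of the LYR family, was at 199 CPM in A1, 190 CPM in A2 and 288 CPM in A3. In ending B it was at 278, 283 and 366 CPM. Its log2 ratios were 0.57 (0.51 to 0.63) and 0.38 (0.32 to 0.45), and among cells with 0 cycling UMIs they were 0.38 and 0.16. Ndufs4, an accessory subunit whose loss is known to cause Leigh syndrome in humans, was at 136, 138 and 175 CPM in A1 to A3 and at 115, 115 and 155 CPM in B1 to B3. Its ratios were 0.36 (0.28 to 0.43) and 0.43 (0.33 to 0.53), and 0.55 and 0.35 among cells with 0 cycling UMIs. For both genes the third set lay above the other sets of its ending, but among cells with 0 cycling UMIs neither was called in both endings. Ndufa13 and Ndufv3 were also higher in A3 (log2 ratios 0.43 and 0.48) but were not called in B3 (0.08 and 0.23). Ndufa12 and Ndufa5 were lower in B3 by the rule (-0.57 and -0.38), with ratios of -0.17 and 0.26 in A3.

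The 4 genes of complex II did not move alike. Sdhb, the iron-sulfur subunit, was at 182, 186 and 150 CPM in A1 to A3 and at 156, 143 and 117 CPM in B1 to B3 (log2 ratios -0.30, -0.38 to -0.21, and -0.35, -0.46 to -0.25). Sdha, the flavin subunit, was at 91.8, 90.6 and 81.1 CPM and at 53.0, 48.9 and 65.5 CPM (-0.17 and 0.37). Sdhb was thus lowest in the third set of both endings, whereas Sdha was lowest in A3 and highest in B3. Sdhc, a membrane anchor, was at 91.6, 94.4 and 82.6 CPM and at 58.4, 57.3 and 55.3 CPM (-0.17 and -0.07, the latter with an interval of -0.22 to 0.09). Sdhd, the other anchor, was at 86.6, 83.5 and 82.0 CPM in ending A and at 11.7, 13.1 and 14.7 CPM in ending B, where it missed the 20 CPM minimum. The intervals of both its ratios included 0 (-0.05, -0.16 to 0.06, and 0.25, -0.07 to 0.56).

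In complex III, Uqcrh, the hinge subunit next to cytochrome c1, and Uqcr10, a small membrane subunit, had the highest levels. Uqcrh was at 478, 530 and 577 CPM in A1 to A3 and at 917, 936 and 960 CPM in B1 to B3 (log2 ratios 0.20 and 0.05, the latter negative without ribosomal protein genes in the denominator). Uqcr10 was at 299, 268 and 343 CPM and at 575, 577 and 562 CPM (0.27 and -0.03). Both were highest in A3 without a call. Uqcr11, another small subunit, had the highest mean of both ratios in the complex, at 243, 209 and 317 CPM and at 404, 399 and 444 CPM (0.48, 0.43 to 0.54, and 0.15, 0.09 to 0.20). Uqcrc2, a core protein of the matrix arm, had the lowest mean, at 157, 161 and 129 CPM and at 107, 98.9 and 102 CPM (-0.30, -0.39 to -0.21, and -0.02, -0.13 to 0.10). The 2 genes thus lay on opposite sides of A1 and A2, and in ending B only Uqcr11 lay outside B1 and B2. Uqcrfs1, the Rieske iron-sulfur protein, was lower in A3 (log2 ratio -0.20) and higher in B3 (0.32).

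In complex IV the highest mean levels were those of Cox4i1 and Cox8a. Cox4i1, the common form of subunit 4, was at 810, 933 and 845 CPM in A1 to A3 and at 1208, 1195 and 1163 CPM in B1 to B3 (log2 ratios -0.04 and -0.05). Cox8a, the common form of subunit 8, was at 668, 691 and 780 CPM and at 1197, 1128 and 1143 CPM (0.20 and -0.02). A3 lay between A1 and A2 for Cox4i1 and above both for Cox8a. Cox7b, a small subunit, was lowest in B3, at 366 CPM against 431 and 446 CPM (-0.26, -0.32 to -0.20), and was at 301, 299 and 289 CPM in A1 to A3 (-0.06, -0.11 to 0.0). Cox7a2l, which is known to link complexes III and IV in supercomplexes, was at 440 CPM in B3 against 322 and 301 CPM (0.50, 0.44 to 0.56), and at 275, 288 and 308 CPM in A1 to A3 (0.13, 0.08 to 0.19). It was the only complex IV member besides Cox4i2 that was called in ending B.

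The alternative isoforms Ndufa4l2 and Cox4i2 had the largest ratios of all 61 members. Ndufa4l2 (chr10:127509274-127517154, GRCm38) was at 8.11 CPM in A1 and 8.09 CPM in A2, and at 102 CPM in A3. In ending B it was at 37.1 CPM in B1, 38.1 CPM in B2 and 116 CPM in B3. The third set lay above both others in each ending, and A1 and A2 were nearly the same. The third set also lay above both others for 41.5% of all genes compared in ending A and 52.1% in ending B. Ndufa4l2 was 12.6-fold higher in A3 (log2 3.65, 3.50 to 3.81) and 3.08-fold higher in B3 (1.62, 1.48 to 1.76). Among cells with 0 cycling UMIs the log2 ratios were 2.69 and 1.38. Without cells holding an epithelial UMI, which left out 93.0% of A3 cells, the ratios were 4.22 and 1.55. Its share of the summed Ndufa4 and Ndufa4l2 UMIs was 1.77% in A1, 1.67% in A2 and 14.5% in A3 (exact Clopper-Pearson interval 13.7 to 15.4), and 6.45%, 6.18% and 16.4% (15.4 to 17.3) in B1, B2 and B3.

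Cox4i2 (chr2:152753916-152765039) was at 9.04 CPM in A1, 10.2 CPM in A2 and 43.2 CPM in A3. In ending B it was at 21.7, 25.9 and 47.0 CPM. It was 4.49-fold higher in A3 (log2 2.17, 1.98 to 2.35) and 1.97-fold higher in B3 (0.97, 0.78 to 1.17), again with the third set above both others. Its share of the summed Cox4i1 and Cox4i2 UMIs was 1.103%, 1.08% and 4.86% (4.41 to 5.34) in A1 to A3 and 1.77%, 2.12% and 3.89% (3.52 to 4.28) in B1 to B3. The common form therefore made up more than 95% of the pair in every set. Without Ndufa4l2 and Cox4i2, the sum of members had ratios of 0.08 and -0.06.

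The share of cells with a Cox4i2 UMI was higher among those that also held an Ndufa4l2 UMI in all 6 sets. In A1 and A2 this rested on only 3 of 52 and 1 of 38 cells with Ndufa4l2. The intervals count cells, which are not replicates. They did not overlap in A3, B2 and B3 and overlapped in A1, A2 and B1. With each cell thinned to 2000 UMIs, 16.2% of A3 cells held an Ndufa4l2 UMI and 7.70% a Cox4i2 UMI (32.6% and 22.5% before thinning). Cox4i2 was found in 14.6% of the A3 cells with Ndufa4l2 (28 of 192, 9.91 to 20.4) and in 6.36% of those without it (63 of 990, 4.92 to 8.07). In B3, where 15.3% and 8.31% of cells held them (22.1% and 14.8% before thinning), the shares were 15.2% (51 of 335, 11.6 to 19.5) and 7.06% (131 of 1855, 5.94 to 8.32). In B2 they were 11.3% (16 of 141, 6.63 to 17.8) and 4.10% (97 of 2367, 3.34 to 4.98). Cells known to lack both genes were not set apart here, so no background share is given.

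Both isoforms are also known from pericytes, cells of small vessels. Pericytes were not set apart here, and which cell type carries the isoforms was not tested. A list of 6 pericyte markers, chosen after the values were seen, summed to 289 CPM in A1 and in A2 but 86.2 CPM in A3, and to 152 and 154 CPM in B1 and B2 but 50.4 CPM in B3. Higd1b and Vtn, 2 markers of the list, were at most 0.347 CPM in any set. Rgs5, the most abundant of the list, was at 168, 176 and 30.8 CPM in A1 to A3 and at 62.6, 67.5 and 22.2 CPM in B1 to B3. Among the cells with 0 cycling UMIs, those with a Pdgfra UMI were set against those without, also after the values were seen. Ndufa4l2 was higher in cells with Pdgfra in 5 of 6 sets (median log2 ratio 1.01) and Cox4i2 in 5 of 6 (median 0.94). The exception was A1 for both, where both intervals included 0 (-0.20, -1.48 to 0.93, and -0.71, -2.74 to 0.91). For Cox4i2 the interval in B2 also included 0 (0.69, -0.07 to 1.43). Over all thinned cells, Ndufa4l2 was found in 18.1% of A3 cells with Pdgfra against 9.52% of those without. In B3 these shares were 16.2% and 14.3%, with intervals that overlapped. For Cox4i2 they were 9.14% and 2.38% in A3, and 9.02% and 7.54% in B3, where the intervals again overlapped. The sum of all members differed by log2 ratios of -0.06 to 0.02 between cells with and without Pdgfra among those with 0 cycling UMIs.

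**Figure D3:**
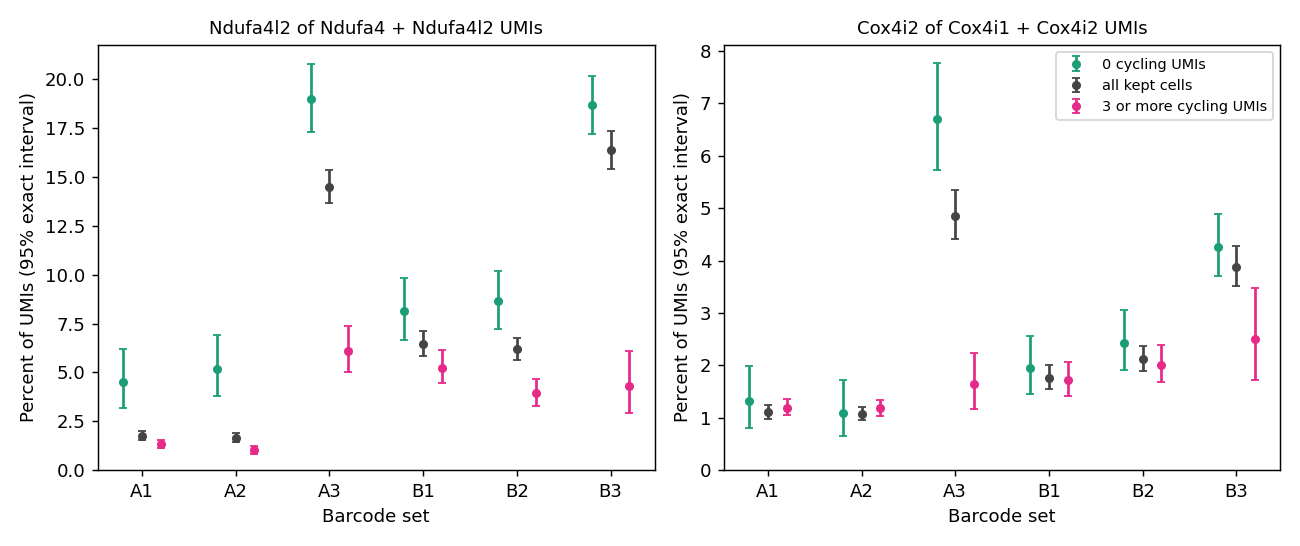
Ndufa4l2 as percent of Ndufa4 and Ndufa4l2 UMIs (left) and Cox4i2 as percent of Cox4i1 and Cox4i2 UMIs (right) in the 6 barcode sets, for cells with 0 cycling UMIs, all kept cells and cells with 3 or more; bars are 95% Clopper-Pearson intervals of counting error. Over all kept cells both shares were highest in A3 and B3, and that of Ndufa4l2 was lower in cells with 3 or more cycling UMIs than in cells with 0 in every set.

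The share of Cox6b2 did not follow this pattern. Cox6b2, known from testis, made up 13.2%, 12.8% and 12.4% of the summed Cox6b1 and Cox6b2 UMIs in A1 to A3 and 17.7%, 16.6% and 15.4% in B1 to B3. It was at 54.1, 54.1 and 58.1 CPM and at 94.3, 88.9 and 80.0 CPM, beside Cox6b1 at 356, 367 and 410 CPM and at 438, 447 and 439 CPM. Its ratios were 0.10 (-0.03 to 0.23) and -0.19 (-0.32 to -0.07). Cox7a1, a heart and muscle form, was at 1.42, 0.937 and 7.03 CPM in A1 to A3 and at 0.787, 2.49 and 2.66 CPM in B1 to B3, beside Cox7a2 at 395, 389 and 492 CPM and at 693, 699 and 718 CPM. Its share of the pair was 0.357%, 0.240% and 1.41% (1.09 to 1.79) in A1 to A3 and 0.113%, 0.355% and 0.369% (0.231 to 0.558) in B1 to B3, low throughout and highest in A3. The other muscle forms, Cox6a2 and Cox8b, and the isoform Cox7b2 were close to the limit of detection. Cox6a2 had 0 UMIs in A2, A3 and B3, which allows up to 0.363 CPM in B3, and at most 0.267 CPM where it was counted, whereas Cox6a1 was at 252, 256 and 263 CPM and at 302, 290 and 279 CPM. Cox8b was at most 0.712 CPM, and Cox7b2 at most 0.121 CPM. The ratio of Cox7a1 was 2.57 (2.06 to 3.07) in ending A and 0.66 (-0.17 to 1.47) in ending B, on 66 UMIs in A3.

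Members were then compared between cells with 3 or more cycling UMIs and cells with 0, both counted after thinning, within each set. The sum of all members hardly differed: the log2 ratio was -0.02 to 0.03 over the 6 sets, with a median of -0.0082. Complex II was higher in cycling cells in all 6 sets, by 0.14 to 0.16, with intervals that included 0 in B1 and B3. Complex III was lower in all 6, by -0.11 to -0.01, with intervals that included 0 in A2 and A3. Complex I (-0.05 to 0.02) and complex IV (-0.01 to 0.05) took both signs. Cells of the cycling class had more UMIs (median 14042.5 against 7951.5 in A1 and 4935 against 3498.5 in B3), and 65 to 178 cells of a set lay exactly at 3 UMIs.

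By the same fold, 0 members were higher in cycling cells in every set, against 8.53% of all genes, and Ndufa4l2 alone was lower, against 4.7%. Its level was 6.06, 4.88 and 36.2 CPM in cycling cells of A1 to A3 against 19.6, 24.3 and 141 CPM in cells with 0 cycling UMIs, and 29.0, 23.0 and 26.2 CPM against 50.1, 54.7 and 137 CPM in B1 to B3. Cells with cycling UMIs were thus lower in each set, by log2 ratios from -2.38 to -0.79, and A3 stood above A1 and A2 in both classes while B3 stood above B1 and B2 only in cells with 0 cycling UMIs. Cox4i2 was lower in 5 of 6 sets, with the widest gap in A3 (14.2 against 59.6 CPM, log2 -2.07), and was 0.11 higher in A2.

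Smaller differences had the same sign in all 6 sets for 20 members. Higher in cycling cells in 6 of 6 sets were 10 members (23.4% of all genes were): Ndufa2, Ndufa5, Ndufa10, Ndufa12, Ndufb7, Ndufb8, Ndufs1, Sdhb, Uqcr10 and Cox7a2. Lower in 6 of 6 were 10 (19% of all genes): Ndufa1, Ndufa4l2, Ndufa6, Ndufa13, Ndufb2, Ndufb5, Ndufb10, Ndufv3, Uqcrh and Cox7a2l. Ndufb8 had log2 ratios from 0.14 to 0.43, and Ndufa12 from 0.13 to 0.43. Ndufa6 had ratios from -0.56 to -0.28, Cox7a2l from -0.47 to -0.18 and Uqcrh from -0.48 to -0.05. Ndufv1 had the highest median (0.39) but was -0.07 in B2. In complex II, Sdha had the highest median (0.29), was negative in A3 (-0.15) and positive elsewhere, and Sdhc the lowest (0.05).

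**Figure D4:**
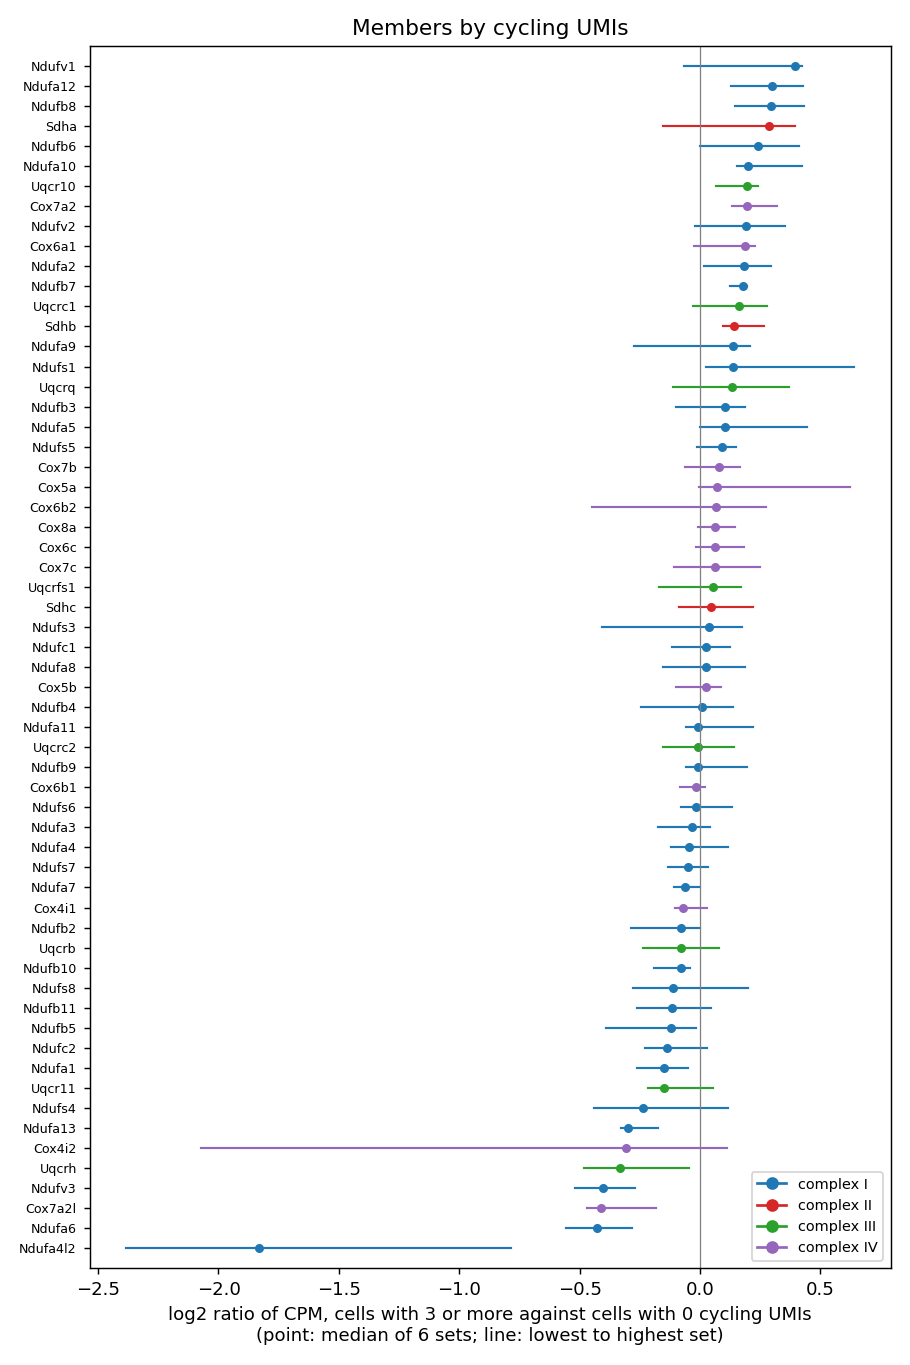
Log2 ratio of CPM between cells with 3 or more and cells with 0 cycling UMIs for the members compared except 1 that is not shown, ordered by the median; points are medians of the 6 barcode sets, lines run from the lowest to the highest set, and colours give the complex. Most lines cross 0, and Ndufa4l2 (median -1.83) lies apart at the low end.

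Transcripts of the mitochondrial genome moved more than the nuclear members. They took 2.61%, 2.72% and 3.19% of UMIs in A1, A2 and A3 and 2.19%, 2.28% and 2.98% in B1, B2 and B3. The third set was highest in both endings, with log2 ratios of 0.26 (0.25 to 0.26) and 0.42 (0.41 to 0.42). The mt-Co genes, the catalytic subunits of complex IV, summed to 11747, 12406 and 15619 CPM in A1 to A3 and to 10014, 10269 and 14397 CPM in B1 to B3, highest in A3 (log2 ratio 0.37) and B3 (0.50), beside 0.10 and -0.05 for the nuclear genes of the same complex. For mt-Cytb the ratios were 0.14 and 0.36, beside 0.18 and 0.02 for nuclear complex III. The mt-Nd genes had 0.06 and 0.12, beside 0.09 and -0.08 for nuclear complex I, and the former turned to -0.01 without ribosomal protein genes in the denominator. In cycling cells the mt- sum was lower in all 6 sets (-0.20 to -0.04), whereas the mt-Nd sum was higher in 5 of 6 (-0.04 to 0.05). The cell filter bears on these values, since it set an upper limit on the mitochondrial share and removed 122 cells of A3 and 98 of B3 but 25 to 46 of each other set.

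Genes that work with the chain were read from lists in the same way. None of the 15 nuclear genes of ATP synthase, which makes ATP from the proton gradient, was higher in both endings (16.3% of all genes were) and 1, Atp5g2, was lower (13.6% of all genes). The list summed lower in both, with log2 ratios of -0.13 and -0.20. Of 42 assembly factors, 21 reached 20 CPM, of which Uqcc3, a complex III factor, was higher in both (ratios 0.70 and 0.72) and Uqcc2 and Ndufaf7 were lower (-0.35 and -0.37, and -0.66 and -0.74). Cytochrome c and cytochrome c1, encoded by Cycs and Cyc1, were not called in either ending, and both were higher in cycling cells (median log2 ratios 0.54 and 0.34). Of 14 citric acid cycle genes, Ogdh was higher in both (0.58 and 0.46), and Idh2, Suclg2 and Fh1 were lower (Fh1 -0.78 and -0.56). Their cycling medians were -0.04 for Ogdh, 0.45 for Idh2, 0.34 for Suclg2 and 0.69 for Fh1. The list had ratios of -0.31 and -0.10 in all kept cells, and of -0.21 and 0.002 in cells with 0 cycling UMIs. Of 12 regulators of mitochondrial biogenesis, 3 reached 20 CPM. Among these, Tfam, which packages and transcribes mitochondrial DNA, was lower in both (-0.72 and -0.49), with a cycling median of 0.40.

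Between single cells of a set, member transcripts varied only somewhat more than UMI sampling. In cells with 0 cycling UMIs, thinned to 2000 UMIs, the summed members had medians of 29 to 38 UMIs per cell, and their variance was 1.40 to 1.84 times that of binomial sampling. Complex II was close to sampling alone (0.965 to 1.23 times). Across those cells, complex I and complex IV sums had Spearman correlations of 0.09 to 0.25 within the 6 sets (195 to 1022 cells each), and all members with mt- genes 0.03 to 0.13. All sums of a cell share its thinned total, and correlations this weak in sparse counts are given as a description only.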

How the data were processed

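Single cells of fetal mouse intestine were prepared with MULTI-seq and 10x Genomics chemistry, per the labels' protocols. The authors deposited 1 matrix of raw UMI counts per gene and cell. The submitters' processing notes name Cell Ranger 2.1.1, Seurat and the build mm10 without their roles, and the sources used here do not give the counting settings, annotation or cell filter, so reads of members with near-identical pseudogene copies may be split or lost. Members and gene lists were chosen with earlier results of these data known. From the counts, sums over cells were divided by all UMIs of a set. Cells with under 1000 genes or over 5% mt- UMIs were left out. No doublet caller was run, and leaving out the 5% of cells with most UMIs was an alternative. Cells were thinned to 2000 UMIs (seed 1) to count 13 S phase and 18 G2 and M phase genes, which left out 41 shallower cells.

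Log2 ratios carry exact conditional binomial intervals and shares exact Clopper-Pearson intervals (scipy 1.17.1), both for counting error only, and the limit for a count of 0 was 3 counts. With 1 pooled matrix there is no test. The ratio step was tested on simulated data for A3 against A1 and A2 (6610 genes, 200 changed by 1.5-fold). It gave the right direction for 100% of changed genes and covered the true ratio for 95.5% of genes. The simulated counts carried counting error alone, as the interval assumes, so this coverage checks the computation and not the spread between cells or sets. Ending A held counts for 21351 symbols and ending B for 18222, with 17403 in both. Named genes are, per complex, the 2 highest levels, the highest and lowest mean ratio and the highest and lowest cycling median, all Sdh genes and the isoform pairs. Ndufa6, Ndufs4 and the other called members were named after their values were seen, and 1 called member is not reported here. Coordinates are from the RefSeq gene table (GRCm38.p6), the build of mm10.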

Additional observations from a re-analysis of the deposited data

Results flagged for a closer look

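The summed members were higher in A3 than in A1 and A2 (log2 ratio 0.10) and lower in B3 than in B1 and B2 (-0.053), so the third set moved in opposite directions in the 2 endings, and the difference between endings was not tested. Ndufb1-ps, a complex I symbol outside the comparisons, had 23169 UMIs in ending A and none in ending B, whose gene list differs.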

How the results depend on the processing

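No paired analysis was possible because the matrix is pooled and its columns carry no replicate numbers. In ending A the log2 ratio of summed members (0.10) was 0.085 with no cell filter, 0.033 with ribosomal protein genes out of the denominator, 0.11 in cells with 0 cycling UMIs and 0.085 without Ndufa4l2 and Cox4i2. In ending B (-0.05) it was -0.042 with mt- genes out of the denominator, -0.14 with ribosomal protein genes out, -0.062 in cells with 0 cycling UMIs and -0.043 without cells holding an epithelial UMI. The last alternative and the one without the isoforms were chosen after seeing the data. No alternative changed either direction. The 4 members higher in both endings became 2 with a minimum of 100 CPM (Ndufa6 and Ndufs4, where 11.2% of all genes were higher), 2 at 1.5-fold (Ndufa4l2 and Cox4i2, 9.23% of all genes) and 2 in cells with 0 cycling UMIs (the same pair). The 0 lower became 5 at 1.1-fold (23.3% of all genes) and 1 (Ndufv1) in cells with 0 cycling UMIs (7.71%). The median cycling ratio of the sum (-0.0082) changed sign with 1 or more cycling UMIs as the class (0.0021) and with the cycling genes out of the denominator (0.00032), both within the range over sets, so it has no stable sign. At 1.1-fold, 2 members were higher (14.3% of all genes) and 5 lower (10.7%) in cycling cells of every set, and with a minimum of 100 CPM 0 were lower. The mt- ratio in ending A (0.26) was 0.32 with no cell filter and 0.27 as a mean over cells, and in ending B (0.42) it was 0.43 with no cell filter. Where a value moved, the cause was not tested. Depth limits the isoforms Cox6a2, Cox8b and Cox7b2, which had few or 0 counts.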

Other observations

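Some genes known to be switched on at low oxygen were higher in the third set of both endings. A part of oxygen in these values was not tested. Of 17 such genes, listed after the values were seen, 12 reached 20 CPM, and 9 of these were called higher in both endings by the fold used for the members (16.3% of all genes were) and 0 lower. Vegfa, a growth factor for vessels, was at 46.5, 46.2 and 214 CPM in A1 to A3 and at 81.7, 88.4 and 252 CPM in B1 to B3. Ndrg1 was at 15.96, 15.1 and 87.2 CPM and at 20.8, 22.1 and 63.5 CPM, and Bnip3, a mitophagy receptor, at 23.9, 18.4 and 76.4 CPM and at 53.4, 58.7 and 164 CPM. These 3 genes were also lower by that fold in cells with cycling UMIs in all 6 sets. Pgk1 and Egln1, 2 other genes of the list, were not called higher in ending A (log2 ratios -0.14 and -0.02). P4ha1 was not called higher in ending B (0.21). Ldha, Pgk1 and Hk2 are also on the glycolytic list that follows. The listed genes share cells and sets with the members, and what the sets are is not known from the labels.

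Of 12 glycolytic genes that reached 20 CPM, 10 were higher in B3 by the rule (28.2% of all genes were), 4 were higher in A3 (20.4%) and 1, Gapdh, was lower there (26.7%). Hk1, Hk2, Aldoa and Ldha were higher in both (16.3% of all genes), where Hk2 and Ldha are the same calls as in the preceding list. The list summed to 4219, 4261 and 4172 CPM in A1 to A3 and to 3218, 3142 and 4787 CPM in B1 to B3. Among cells with 0 cycling UMIs it was higher in the third set of both endings, at 4331 CPM in A3 against 3410 and 3342 CPM (log2 ratio 0.36) and 4958 CPM in B3 against 3548 and 3447 CPM (0.50). Gapdh, the most abundant of the list, had log2 ratios of -0.48 in A3 and 0.25 in B3. Ppargc1a, a coactivator of mitochondrial biogenesis that did not reach 20 CPM, was at 7.21, 7.33 and 13.2 CPM and at 6.49, 6.05 and 28.5 CPM.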
